A study of Mus musculus with 5 samples.

Results

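The windows described here are transcription start site (TSS) windows in which the nucleosome signal lay over the TSS itself, in place of the trough that most strong windows had there. They were chosen on the measured values. Each library's matrix of nucleosome signal was divided by its own mean, which sets the mean relative signal to 1, and the wild-type mean and the knockout mean were averaged. A window was a member when this average was at least 1.3 over the window, when the centre (within 50 bp of the TSS) was at or above the mean of both flanks (50 to 200 bp away on either side), and when the centre was at or above the higher of the outer ends (700 to 1000 bp away). The rule was met by 1566 of 36447 distinct windows, which was 16.3% of the 9610 windows at or above 1.3. The other 8044 of these are called the other strong windows. The members are called centre-high windows.

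The libraries came from an assay for accessible chromatin (ATAC-seq), in which the Tn5 transposase cuts exposed DNA and the lengths of the fragments report nucleosomes beside the cuts. All cells were C57BL/6J mouse pre-B cell leukaemia cells that carried BCR-ABL1, an oncogenic tyrosine kinase fusion, and were null for p19. In 2 libraries PHF6, a nuclear protein with zinc-binding domains, was intact (wild-type replicates 1 and 3), and in 3 it was null (knockout replicates 1, 2 and 3). The design text calls the replicates biological without saying what was replicated (clones, cultures or animals), so a p-value here measures only the spread between these libraries. The signal, over 1000 bp on either side in bins of 10 bp, had no row names, so a window is cited by its row number and the windows could not be tied to genes or checked as promoters. For the same reason neither the cell type nor the loss of PHF6 could be checked on the data.

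At active promoters the DNA just upstream of the TSS is usually kept free of nucleosomes, so that transcription factors and RNA polymerase can bind, and positioned nucleosomes stand on either side. The nucleosome downstream of the TSS is the first that polymerase meets. A nucleosome signal over an annotated TSS is known from promoters that lack a depleted region and from genes that start at another position than the annotated one. These data cannot tell those cases apart, because the windows carry neither gene names nor expression values.

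The mean signal as deposited was lowest in knockout replicate 3 (0.316), and ran from 0.533 to 0.6 elsewhere. Within the centre-high windows, bins at exactly 0 made up 20.9% to 24.6% in 4 libraries and 34.1% in knockout replicate 3. Each wild-type library carries 25% of the average behind the rule and each knockout library 16.7%. The rule therefore favours windows that are high at the centre in a wild-type library.

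The average centre-high window had a sharp maximum at the TSS, a minimum on either side of it, and broader maxima beyond. The average profile was strongest at -15 bp, except in knockout replicate 2, where it was strongest at -25 bp. Its relative signal was 7.34 and 7.26 in wild-type replicates 1 and 3. It was 6.77, 6.67 and 7.44 in knockout replicates 1, 2 and 3. When both sides were averaged, the minimum lay in the bin 100 to 110 bp away in 4 libraries and 110 to 120 bp away in knockout replicate 3. The next maximum was found at 235 bp, or 245 bp in knockout replicate 3. In the other strong windows the order was inverted, with the minimum 5 bp from the TSS, a first maximum in the bin from 130 to 140 bp and a further one at 325 bp, as all 5 libraries showed. The members' outer maxima thus fell between the first and the next maximum of the other windows. The rule sorts windows on the centre against the flanks and outer ends. The high centre of the members and the inverted order in the others are therefore in large part built in.

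**Figure D1:**
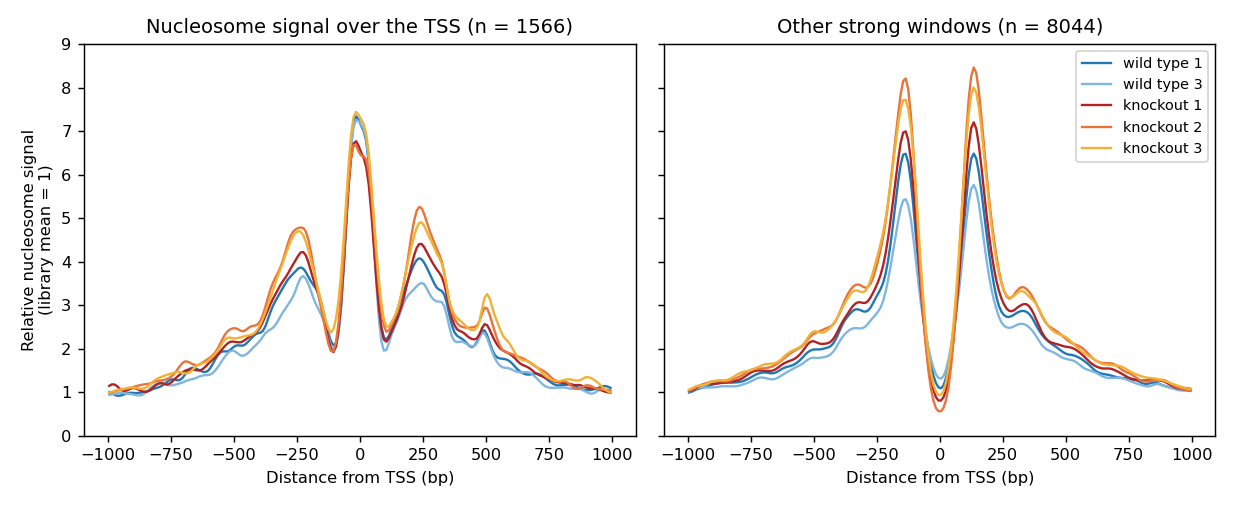
Mean relative nucleosome signal (y axis, library mean = 1) against distance from the TSS in bp (x axis) for the 1566 centre-high windows (left) and the 8044 other strong windows (right), with 1 line per library. The centre-high windows peak at the TSS with outer maxima near 235 bp, and the other strong windows have a trough there between maxima 130 to 140 bp away. The rule sorts windows on the centre, so the contrast there is in large part built in.

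At the neighbouring maxima, 235 to 245 bp away, the members' folded signal was 3.97 and 3.56 in wild-type replicates 1 and 3, against 4.31, 5.02 and 4.80 in knockout replicates 1, 2 and 3. All 3 knockout libraries lay above both wild-type libraries there. They also did after scaling by the 25% strongest windows (1.69 and 1.65 against 1.73, 1.83 and 1.74), but not as deposited, where knockout replicate 3 was the lowest (2.12 and 1.92 against 2.58, 2.81 and 1.52); both scalings were added after seeing the data. At the minimum between centre and neighbour the signal was 2.14 and 1.96 in the wild-type pair, and 2.04, 2.17 and 2.44 in the knockout libraries, and the genotypes overlapped. A weaker maximum followed at 485 to 505 bp, and 1 window gave part of its height. Row 20025 held 7.67% and 8.36% of the members' summed signal between 450 and 550 bp to the right in the wild-type pair, and 9.51%, 9.32% and 12.5% in the knockout libraries. Without that window the maximum lay at 475 to 505 bp, the neighbouring maximum at 235 to 245 bp, and the strongest bin between -15 and 15 bp.

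The members differed among themselves in how far the centre dominated. The centre of the genotype average had a median of 5.17 over members, with the middle 80% between 2.57 and 11.8. The ratio of centre to flank had a median of 1.83 and reached 50.3. In 438 members (28%) the strongest bin of the whole window lay within 50 bp of the TSS. In 383 (24.5%) it lay 200 to 300 bp away, and in 452 (28.9%) further out. Among the other strong windows 4054 (50.4%) had their strongest bin 100 to 200 bp from the TSS and 9 within 50 bp, which the rule itself brings about. Both flanks were below the centre in 1089 members. In the other 477 members 1 flank was at or above the centre, the left in 257 and the right in 220. The left flank exceeded the right in 51% of members. The width of the central maximum at 50% of its height had a median of 60 bp and ranged from 40 bp (percentile 5) to 140 bp (percentile 95).

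Because the rule used all 5 libraries, the central signal was also read in libraries that had not chosen the windows. The rule was applied to 4 libraries at a time, which gave 1538 to 1652 windows, and the library left out was read. In that library 57.9% and 60.8% of the chosen windows had a centre at or above the flank when wild-type replicates 1 and 3 were read. The share was 62.3%, 57.1% and 57.3% when knockout replicates 1, 2 and 3 were read. Among the strong windows not chosen it was 8.99% to 18.9%. The mean centre to flank ratio of the chosen windows was 1.77 to 1.96 in the library left out, and that of the strong windows not chosen 0.164 to 0.417. The central signal thus recurred in each library left out, while about 40% of the chosen windows did not show it there; the depth behind the signal is unknown.

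Single libraries showed the shape to unlike degrees. The shape (centre at or above flank and outer ends) was met in all 5 libraries by 18.2% of members, in 4 by 342 members (21.8%), in 3 by 489 (31.2%), in 2 by 348 (22.2%) and in 1 by 6.51%. Among the other strong windows it was met in no library by 5461, in 3 libraries by 67 and in 4 or 5 by 0. In the members with signal at the centre in both libraries of a pair, the strongest central bin lay within 20 bp in 71.4% of cases for the wild-type pair, in 67.5% to 72.8% between knockout libraries and in 63% to 70.6% between genotypes. The median distance was 10 bp in 9 of 10 pairs and 20 bp between wild-type replicate 3 and knockout replicate 3. The centre is only 100 bp wide, so a large part of this closeness arises wherever the strongest bins fall. The other strong windows were not read in this way, so no closeness particular to the members can be read from these shares.

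Aligning the members on their own central summit sharpened this pattern. The summit was found within 50 bp of the TSS in 1 library, and the signal was read in another, over all 20 ordered pairs of libraries. The library read was not left out of the rule, which chose the members on the centre and flanks of all 5 libraries. Each wild-type library had more weight in it than each knockout library. The height at the summit and the order of the genotypes there are therefore in part built in and are descriptions. The signal at the summit was 10.8 to 12.5, fell to 1.38 to 1.86 at 100 to 120 bp, and rose to 3.73 to 4.99 at 190 to 210 bp. The distance from summit to neighbour was thus close to that between the first and next maxima of the other strong windows, and shorter than the 235 bp seen when the windows were aligned on the TSS. Averaged over the libraries that set the summit, the neighbour had a relative signal of 4.12 and 3.8 in wild-type replicates 1 and 3, against 4.29, 4.86 and 4.74 in knockout replicates 1, 2 and 3. At the summit itself it was 11.9 and 11.8 in the wild-type pair, and 11.3, 11.4 and 11.5 in the knockout libraries. All knockout libraries were above wild type at the neighbour, with any of the 5 libraries setting the summit. Below wild type at the summit they were in this average and with wild-type replicate 1 or 3 or knockout replicate 1 setting it, but the genotypes overlapped with knockout replicates 2 and 3 setting it. The other strong windows, aligned on the TSS, had the same order at their first maximum (6.48 and 5.6 against 7.1, 8.33 and 7.86). Their next maximum had it too (2.89 and 2.52 against 3.04, 3.45 and 3.33), so a higher knockout maximum was not particular to the members. The summit alignment is given in relative signal, and the order at the TSS-aligned neighbour did not hold as deposited.

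**Figure D2:**
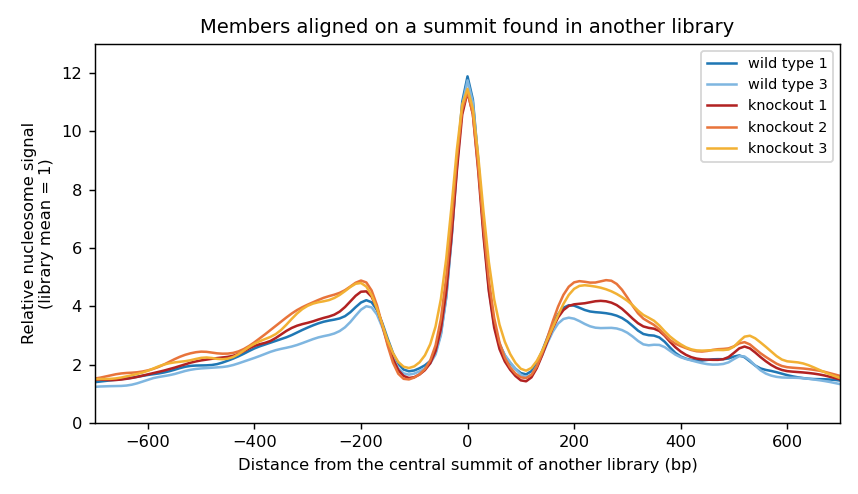
Mean relative nucleosome signal (y axis, library mean = 1) of the 1566 centre-high windows against distance in bp (x axis) from the central summit found in another library, averaged over the 4 libraries that set the summit. The 5 lines share a narrow summit and minima near 110 bp, and the neighbours at 190 to 210 bp are higher in the 3 knockout libraries. The rule chose the windows on the centre of all 5 libraries, so the height of the summit is in part built in.

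The comparison of genotypes asked whether the signal over the TSS differed without PHF6. At the centre the mean relative signal over all members was 6.69 and 6.69 in wild-type replicates 1 and 3, against 6.22, 6.29 and 6.90 in knockout replicates 1, 2 and 3. Knockout replicate 3 lay above both wild-type libraries and the other knockout libraries below them. The difference (6.69 in wild type; 6.47 ± 0.370, SD, n = 3, in knockout) did not exceed the spread between libraries (exact two-sided permutation p = 0.4). Scaled by the 25% strongest windows, the centre was 2.84 and 3.1 against 2.51, 2.29 and 2.5, with all knockout libraries below wild type (exact permutation p = 0.1), and with equal weights in the rule the difference was 0.142 (exact permutation p = 1). The flanks had 2.99 and 2.81 in the wild-type pair, and 2.95, 3.15 and 3.32 in the knockout libraries, and knockout replicate 1 fell inside the wild-type range (exact permutation p = 0.3). The outer ends had 1.12 and 1.07 in the wild-type pair, and 1.16, 1.21 and 1.24 in the knockout libraries, and the genotypes did not overlap (exact permutation p = 0.1). Scaled by the 25% strongest windows, the order of the outer ends was reversed, at 0.476 and 0.497 against 0.468, 0.441 and 0.45. The smallest p that 2 against 3 libraries allow is 0.1, so no such comparison could pass 0.05. Over a family of 17 comparisons, 0.1 became 0.189 after Benjamini-Hochberg adjustment. The p-values with scaling by the 25% strongest windows or with equal weights lie outside this family and were not adjusted. The rule chose the members on the centre, flank and outer values of these same libraries, so the p-values only describe the order of the libraries.

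These levels depend on the scaling. As deposited, the members' centre was 3.57 and 3.6 in the wild-type pair, and 3.73, 3.52 and 2.18 in the knockout libraries (exact permutation p = 0.8), and their flanks were 1.59 and 1.51 against 1.77, 1.76 and 1.05 (exact permutation p = 1). Knockout replicate 3 was the lowest library in both. The ratio of centre to flank needs no scaling. It was 2.24 and 2.39 in wild-type replicates 1 and 3, against 2.11, 2.00 and 2.08 in knockout replicates 1, 2 and 3. Each knockout library lay below both wild-type libraries, by 0.165 on the log2 scale between the means (exact permutation p = 0.1). With all 5 libraries weighted equally in the rule, which gave 1553 members, the difference was -0.061 (exact permutation p = 0.5). In windows chosen on 1 wild-type and 1 knockout library, it was -0.25 to -0.023 in the libraries left out. The part of the weights in the difference was not tested. A centre of exactly 0 was found in 1.28% and 0.639% of members in wild type, and in 1.66%, 5.62% and 4.34% in knockout. Knockout replicates 2 and 3 also had the most bins at 0, and the part of this in the ratio was not tested.

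The centre was also compared between genotypes in the other strong windows. In the other strong windows the centre was 1.45 and 1.61 in the wild-type pair, and 1.15, 0.934 and 1.32 in the knockout libraries, and the ratio of centre to flank was 0.293 and 0.371 in the wild-type pair, and 0.217, 0.152 and 0.219 in the knockout libraries. The centre of members stood above that of the other strong windows by 2.21 and 2.05 (log2) in wild-type replicates 1 and 3, and by 2.43, 2.75 and 2.38 in knockout replicates 1, 2 and 3. This gap was wider in each knockout library, by 0.39 on the log2 scale between the means. For the log2 ratio of centre to flank the gap was 2.93 and 2.69 in the wild-type pair, and 3.28, 3.72 and 3.25 in the knockout libraries (difference 0.61). The rule sorted the windows on these same values, so both gaps are descriptions.

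The same contrast was read in libraries that had not chosen the windows. Windows were chosen on 1 wild-type and 1 knockout library, and the remaining wild-type library was compared with the remaining pair of knockout libraries, for each of 6 choices. In the windows chosen as centre-high the knockout minus wild-type difference of the log2 centre to flank ratio was between -0.25 and -0.023. In the strong windows not chosen it was between -1.07 and -0.45. The difference between these was 0.41 to 0.96 and had the same sign in 6 of 6 choices, which share libraries with each other. In single windows the median difference of centre and flank (log2, limma) was -0.21 in members and -0.73 in the other strong windows, but with quantile normalization it was 0.03 in both, so this contrast depends on the normalization. Quantile normalization was not run for the held-out levels. The centre level itself differed by -0.25 to 0.42 between genotypes in the chosen windows, with no common sign.

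**Figure D3:**
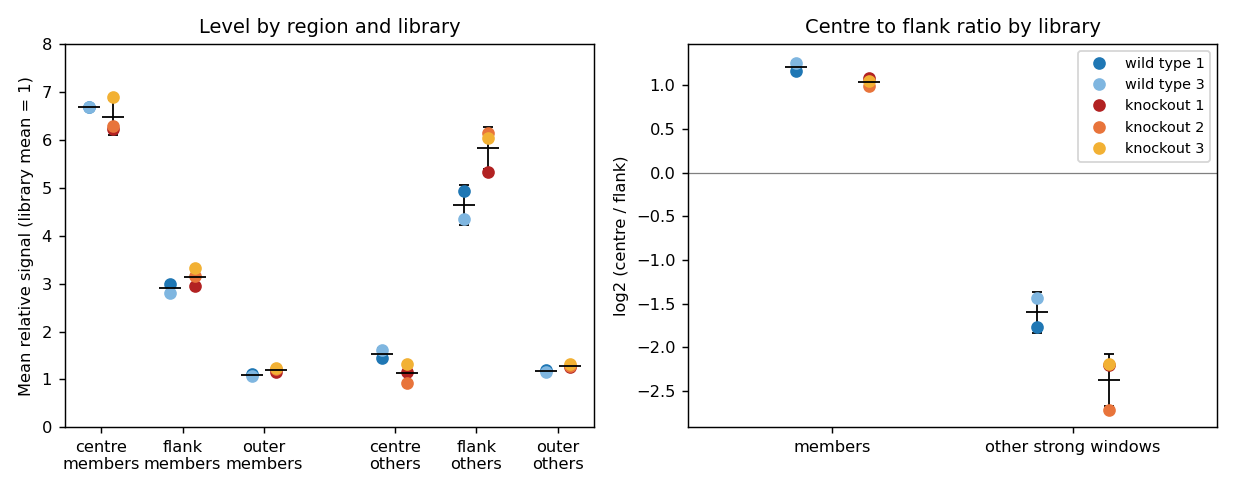
Left, mean relative signal (y axis, library mean = 1) at the centre, flanks and outer ends (x axis) of the centre-high windows (members) and the other strong windows; points are libraries, bars the mean and SD of 2 wild-type and 3 knockout libraries. Right, the log2 ratio of centre to flank, where the members lie at 1.16 and 1.25 in wild type and at 1.0 to 1.08 in knockout, and the other strong windows at -1.77 and -1.43 in wild type and at -2.72 to -2.19 in knockout.

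How many windows had the signal over the TSS was also asked of each library by itself, which needs no average over genotypes. The rule was met by 1800 and 2042 windows in wild-type replicates 1 and 3, and by 1551, 1274 and 1551 in knockout replicates 1, 2 and 3. As a share of the windows that were strong in that library these were 19.4% and 22.4% in the wild-type pair, and 16.7%, 13.7% and 16.5% in the knockout libraries. All 3 knockout libraries lay below both wild-type libraries (20.9% ± 2.12, SD, n = 2, against 15.6% ± 1.67, SD, n = 3; exact permutation p = 0.1). Over the same 9610 windows in every library the shares were 19% and 21.9% against 16.3%, 13.6% and 16.1%. The mean of the wild-type pair gave 1889 windows and the 3 knockout pairs 1368 to 1526. The wild-type mean and the mean of all 3 knockout libraries (1420 windows) had 784 windows in common, 41.5% of the first list and 55.2% of the second. By the rule's construction, a window on both lists is a member.

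**Figure D4:**
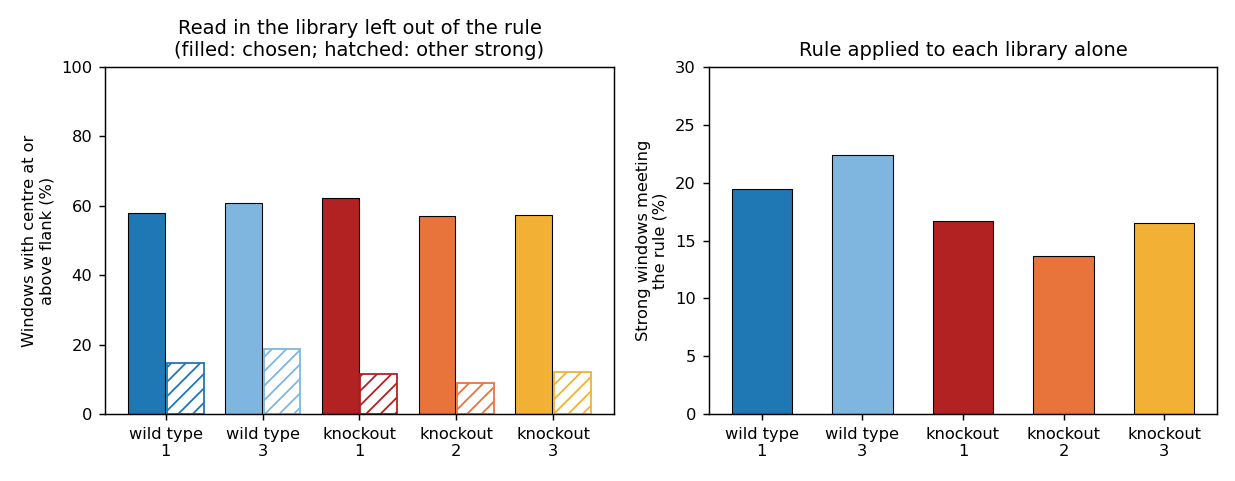
Left, percent of windows with a centre at or above the flank (y axis) in the library left out of the rule (x axis), for chosen windows (filled bars) and other strong windows (hatched bars). Right, percent of each library's strong windows that met the rule in that library alone; the 2 wild-type libraries reach 19.4% and 22.4% and the 3 knockout libraries 13.7% to 16.7%.

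The subsets of members did not all show the same order of libraries. In the 1089 members with both flanks below the centre, the centre was 7.47 and 7.29 in the wild-type pair, and 7.06, 7.25 and 7.84 in the knockout libraries. In the 477 members with 1 flank at or above the centre it was 4.93 and 5.34 in the wild-type pair, and 4.31, 4.12 and 4.74 in the knockout libraries, and the flanks were 3.68 and 3.42 against 3.79, 4.17 and 4.26. Here the genotypes did not overlap at either region. In the 18.2% of members that met the shape in all 5 libraries the direction at the centre was the other way, with 11.8 and 10.9 in the wild-type pair, and 12.8, 13.9 and 13.8 in the knockout libraries. These subsets were set by the same values, so the differences are descriptions and the difference between subsets was not tested.

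Single windows were compared in limma on log2(relative signal + 0.1) over all 36447 windows. At an adjusted p of 0.05, 0 windows were called for the whole window, the centre, the flanks or the difference of centre and flank, 0% of members and 0% of all windows. At an unadjusted p under 0.05, 65 members were higher and 77 lower in knockout at the centre, where 1.28% and 5.7% of all windows were. These were 4.15% and 4.92% of the members and 2.24% and 7.15% of the other strong windows. All 3 knockout libraries lay above both wild-type libraries at the centre of 214 members (13.7%, against 4.77% of all windows and 7.45% of the other strong windows). They lay below both in 244 members (15.6%, against 14.5% and 18.8%). The members' centres were split nearly evenly between the directions, while in the other strong windows lower centres were the more common. The rule sorted the windows on these same centre values, so this contrast is in part built in and is a description. The limma median log2 difference (knockout minus wild type) was -0.13 at the members' centres, -0.49 at those of the other strong windows and -0.28 over all windows. With quantile normalization, which moved the median of all windows from -0.28 to 0, these medians were 0.07 and 0.11, so the sign changed and the members no longer lay above the other strong windows. For the flanks the median was 0.05 in members, 0.28 in the other strong windows and -0.17 over all windows; with quantile normalization it was -0.01, 0.07 and 0.02. At the flanks 6.51% of members were higher and 3.38% lower at an unadjusted p under 0.05 (3.39% and 4.42% of all windows). All knockout libraries lay above both wild-type libraries at the flanks of 235 members (15%, against 9.61% of all windows) and below them in 180 (11.5%, against 13.7%). For the difference of centre and flank, 54 members were higher and 91 lower at an unadjusted p under 0.05 (3.15% and 4.93% of all windows), and the libraries did not overlap in 11.6% of members with a higher difference (9.52% of all windows) and in 15.3% with a lower one (11.7%). For the whole window, 201 members were higher and 56 lower at an unadjusted p under 0.05 (12.8% and 3.58% of members, 4.54% and 6.67% of all windows). There the knockout libraries lay above both wild-type libraries in 362 members (23.1%, against 9.69% of all windows and 27% of the other strong windows) and below them in 150 (9.58%, against 20.4% and 6.2%). The median log2 difference of the whole window was 0.13 in members and 0.20 in the other strong windows, and with quantile normalization -0.06 and 0.03, so the members' direction went with the scaling.

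With the weakest 25% of windows by mean signal left out, 29 members were called by limma on their whole-window signal (adjusted p under 0.05), 27 of them higher in knockout (1.72% of members, against 0.563% of the 27335 windows tested) and 2 lower (0.128%, against 0.0915%). The shares were close to those of the other strong windows (1.54% and 0.087%). The whole-window signal of the 27 had medians of 2.56 and 2.28 in the wild-type pair, and 4.78, 6.41 and 5.35 in the knockout libraries. At their centres the medians were 4.6 and 5.78 in the wild-type pair, and 13.6, 14.4 and 13.8 in the knockout libraries, and at their flanks 1.43 and 2.52 against 4.29, 5.94 and 6.55. In 19 of the 27 all knockout libraries exceeded both wild-type libraries at the centre (4.77% of all windows), and in 19 at the flanks (9.61%); the 27 were chosen for a higher whole window, which holds both regions, so nothing is read from these counts. The count of 29 was 8 without knockout replicate 2, and it was 11 or 3 when wild-type replicate 1 or 3 was left out; it was 33 and 24 without knockout replicates 1 and 3. These windows were picked by p on these libraries, so their sizes may be overstated.

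Of the 5 members with the highest centres, 4 had a higher centre in every knockout library than in either wild-type library (4.77% of all windows and 13.7% of members); they were chosen on the same centre values. Row 21269 had a centre of 37.4 and 39.9 in wild-type replicates 1 and 3, against 86.1, 117.7 and 101.9 in knockout replicates 1, 2 and 3, beside flanks of 0.343 to 2.39. Row 21268, the row before it, had 32.8 and 38.9 in the wild-type pair, and 67.3, 101.4 and 79.5 in the knockout libraries. Row 29742 had 20.1 and 25.5 in the wild-type pair, and 57.6, 62.5 and 59.8 in the knockout libraries. In these 3 windows every knockout library was more than 1.5 times every wild-type library at the centre. Their centre differences of 1.38, 1.19 and 1.4 (log2) did not pass in limma over all windows (adjusted p 0.732, 0.736 and 0.732). For the whole window they did not pass over all windows either (0.202, 0.221 and 0.202), and with the 25% of lowest mean left out they were among the 27, at adjusted p 4.33e-05, 0.00223 and 0.00483 in limma.

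Other strong centres had genotypes close together or libraries far apart. Row 31015 had 46 and 20.9 in the wild-type pair, and 62.4, 79.9 and 84.5 in the knockout libraries, where the wild-type libraries themselves were far apart. Row 6699, with a ratio of centre to flank of 35, had 15.2 and 17.1 in the wild-type pair, and 15.4, 16.1 and 15 in the knockout libraries, the same level within a narrow range. Row 9694 had 32.8 and 19.5 in the wild-type pair, and 27.1, 32.9 and 9.57 in the knockout libraries, and knockout replicate 3 was the lowest. Row 20025 stood apart from all members, with a mean of 49.9 over the window and a centre of 236 and 250 in the wild-type pair, and 197.4, 157.9 and 158.4 in the knockout libraries; its strongest bin lay at 495 bp. Its whole-window limma adjusted p was 0.92 over all windows and 0.0403 with the 25% of lowest mean left out, at a log2 difference of 0.19, so this call went with the set of windows tested.

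The windows with the smallest p for the whole window differed unevenly at centre and flanks. Row 16401 had a centre of 7.10 and 0.169 in the wild-type pair, and 15.6, 25.4 and 20.6 in the knockout libraries. Row 17025 had 7.15 and 0.160 in the wild-type pair, and 23.5, 20.8 and 43.3 in the knockout libraries, with flanks of 5.42 and 2.95 against 11.5, 15.2 and 13.5. Both had a wild-type replicate 3 near 0 at the centre. Row 14853 had flanks of 0.176 and 0.00208 in the wild-type pair, and 1.81, 3.01 and 6.49 in the knockout libraries, and its centre differed less (1.23 and 1.2 against 2.59, 3.92 and 1.81). In the other direction, row 10548 had a centre of 6.51 and 13.9 in the wild-type pair, and 1.25, 2.69 and 0.344 in the knockout libraries. Row 20501 had 3.93 and 11.6 in the wild-type pair, and 0.00384, 1.2 and 6.62 in the knockout libraries, where the genotypes overlapped. Row 1320 had 8.22 and 4.40 in the wild-type pair, and 1.99, 2.46 and 0.489 in the knockout libraries. Their limma adjusted p-values for the whole window ran from 0.117 to 0.287 over all windows.

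At the centre alone, the smallest p-values marked windows whose signal over the TSS was near 0 in 1 genotype, or near the library mean of 1 in the wild-type libraries of rows 20112 and 14178. Row 12425 had 7.26 and 11.9 in the wild-type pair, and 0, 0 and 0.00617 in the knockout libraries. Row 1973 had 9.18 and 10.1 in the wild-type pair, and 0.175, 0 and 0.0351 in the knockout libraries. Row 2742 had 13.1 and 5.41 in the wild-type pair, and 0.0180, 0 and 0 in the knockout libraries. These members met the shape only in the 2 wild-type libraries. In the opposite direction, row 14221 had 0.00525 and 0.0385 in the wild-type pair, and 3.34, 8.46 and 6.65 in the knockout libraries. Row 20112 had 0.973 and 1.02 in the wild-type pair, and 15.3, 9.05 and 11.1 in the knockout libraries. Row 14178 had 0.917 and 0.935 in the wild-type pair, and 8.54, 13.4 and 18 in the knockout libraries. These met it only in the 3 knockout libraries. Genotypes did not overlap at the centre in any of these 6 windows, and none passed in limma (adjusted p 0.683 for each). They were picked by small p on centre values that the rule also used, and each met the shape in 1 genotype only. The lack of overlap therefore came with the choice. Over all windows, every knockout centre lay above both wild-type libraries in 4.77% and below them in 14.5%.

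The difference of centre and flank named 3 further windows. Row 480 had a centre of 0.192 and 1.45 in the wild-type pair, and 3.9, 6.52 and 7.24 in the knockout libraries, while its flanks went from 0.442 and 1.75 to 0.166, 0.213 and 0.123. Row 32056 had a centre of 0.942 and 0.967 against 4.77, 15.3 and 8.44, and flanks of 2.93 and 3.08 against 1.47, 1.49 and 1.18. In both, the centre was higher and the flanks lower in every knockout library. Both were picked by small p of this difference and met the shape only in the knockout libraries, so these directions came with the choice. Over all windows, this difference was higher in every knockout library than in both wild-type libraries in 9.52%. Row 4471 had a centre of 7.38 and 12.5 in the wild-type pair, and 0.170, 0 and 0 in the knockout libraries. It was likewise picked by small p, in the other direction, and met the shape in 2 libraries. The limma adjusted p of the difference of centre and flank was 0.557 for each of the 3.

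The windows at the edge of the rule show how thin it is there. Rows 1654 and 14676 lay just inside the bound of centre against flank, with centre and flank of 4.78 and 4.78 in the former and 0.955 and 0.952 in the latter. Rows 2432 and 13488 lay just outside it, with 2.56 and 2.56 and with 4.73 and 4.73. The shape was met in 1 library in each of the former rows, and in 2 and 3 libraries in the latter. Rows 23022 and 5288 were just above the mean of 1.3 and rows 1704 and 12597 just below it, with the shape met in 2, 3, 3 and 3 libraries. Of the 36447 distinct windows, a further 7220 had the shape and a mean below 1.3, against the 1566 members at or above it. The shape was thus not particular to strong windows.

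Some windows overlap because their TSSs are neighbours, and then hold identical runs of signal shifted by the distance between the TSSs. Runs of 10 bins identical in all 5 libraries, each above 0.01 in wild-type replicates 1 and 3, were found in 320 pairs of windows, all in the same column order and 0 in reversed order. Only distances that are whole bins of 10 bp can be found in this way, so these are a part of the overlaps. Of these pairs 58 joined a member to a window that was not a member, and 5 joined members to each other; 68 members took part. In 55 of the 58 pairs the partner was another strong window. In 54 of the 58 (93.1%) the partner's own centre was below its flank. The rule largely sets this count, as 7729 of all 8044 other strong windows had a centre below the flank. The partners had a median centre of 1.05 and flank of 3.65, and the members beside them a median centre of 5.29 and flank of 2.56. Over all other strong windows these medians were 0.986 and 4.56, and over all members 5.17 and 2.52. In these pairs windows with and without the central signal shared part of their chromatin.

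The TSSs of these 58 pairs were 80 to 200 bp apart in 30 pairs (51.7%), around the distance at which the other strong windows have their maximum, and under 80 bp apart in 2. Among the pairs in which both were other strong windows, 35 (25.2%) lay 80 to 200 bp and 30 (21.6%) under 80 bp apart. The bounds were set after the distances were seen, and shared signal with opposite shapes favours such distances, so no test was made. Of the 5 pairs of members, 4 lay under 80 bp apart. Row 20246 had a centre of 6.75 and flank of 1.91 in the genotype average, and row 29714, with its TSS 60 bp away, had a centre of 0.449 and flank of 3.54. Row 15024 had a centre of 3.96, and row 19816, 50 bp away, had 2.07 with a flank of 3.19. Rows 6060, 20331, 4588 and 4015 each overlapped another member, at distances of 10, 20, 30 and 60 bp. Counts of windows are therefore not counts of separate promoters.

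**Figure D5:**
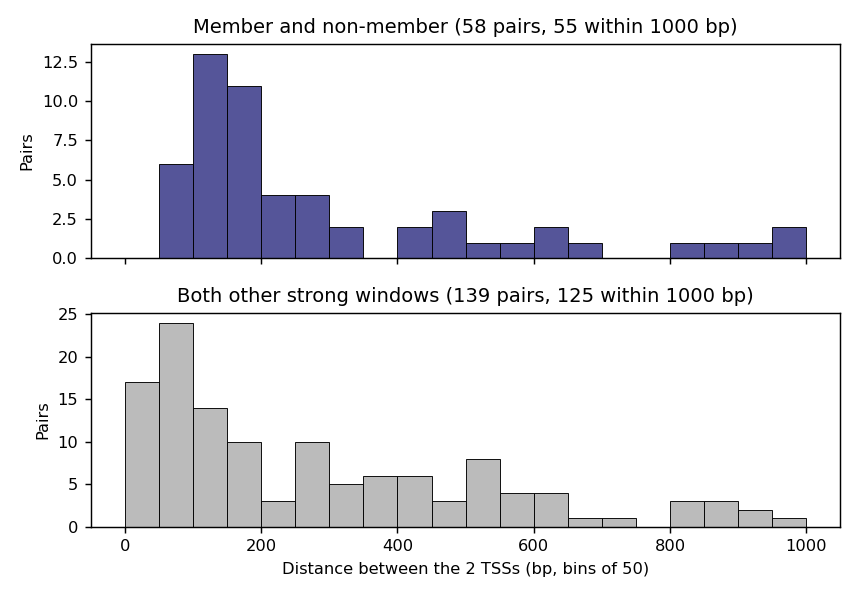
Number of pairs of overlapping windows (y axis) by the distance between their TSSs in bp (x axis, bins of 50 bp), for the 58 pairs of a centre-high window and a non-member (top) and the pairs in which both are other strong windows (bottom). Pairs less than 1000 bp apart are drawn, 55 of them at the top; the top panel is highest from 100 to 200 bp, and the bottom panel from 50 to 100 bp.

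In the 30 members that lay 80 to 200 bp from such a partner, the centre was 7.44 and 6.47 in the wild-type pair, and 4.13, 5.21 and 7.06 in the knockout libraries, and the genotypes overlapped. The ratio of centre to flank, as log2, was 1.21 and 1.3 in the wild-type pair, and 0.28, 0.62 and 1.17 in the knockout libraries, with knockout replicate 3 close to wild type.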

How the data were processed

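The authors deposited 1 matrix of nucleosome signal per library, in bins of 10 bp. Per the submitters' processing notes, Bowtie2 and MACS2 were used with mm9 as the mouse build. Per the file names the signal came from NucleoATAC, which calls nucleosomes from fragment lengths. For its version, the track, the scaling between libraries and the TSS list the sources used here give nothing, and the depth is unknown. Of 37310 rows, 818 without signal and 45 repeats were left out. Each library was divided by its mean over all rows. The 320 overlapping pairs found were all in the same column order and no strand was given, so left and right were not read as upstream and downstream.

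Single windows were fitted in limma 3.58.1 (R 4.3.3; lmFit, eBayes with trend, pseudocount 0.1, Benjamini-Hochberg over all distinct windows). Library values were compared by exact two-sided permutation over 10 splits, with Benjamini-Hochberg adjustment over 17 comparisons (Python 3.11.15, numpy 2.4.6). A further 20 on subsets and 3 on overlapping windows were computed and are given as values only. Comparisons rerun under other scalings, thresholds, weights or sets of libraries were not adjusted. The fits and the permutation test were tested on simulated data. Windows were named by rule: the 5 highest centres and centre to flank ratios, the 3 smallest p-values a direction, the nearest to each threshold, and the 6 longest overlaps. The members, the rule and the tests were chosen with earlier results of these data known. The rule applied to each library alone, the subsets, the summit alignment, the overlap distances and the windows without the 1% of highest mean were chosen after seeing the data.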

Additional observations from a re-analysis of the deposited data

How the results depend on the processing

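The members' centre to flank ratio (log2 difference -0.165) and both comparisons with the other strong windows (0.606 and 0.393) cannot move with a scaling by a constant. They kept their sign under the thresholds, medians and weights run, with the ratio at -0.061 and the libraries overlapping under equal weights. The members' flank difference (0.241) was -0.0258 without scaling and -0.107 when scaled by the 25% strongest windows, which also gave -0.0332 for the outer ends (0.110). The centre difference (-0.225) was 0.142 when M was the plain mean of the libraries. Without 1 library the differences ran from -0.437 to -0.100 (centre), 0.149 to 0.339 (flank), 0.0845 to 0.135 (outer), -0.211 to -0.119 (ratio), 0.456 to 0.729 and 0.278 to 0.470 (against the other strong windows) and -6.78 to -3.79 percentage points (strong windows meeting the rule in a library alone, -5.28). The share with a centre at or above the flank in a library left out was 59.1% on average with the rule on 4 libraries and 55.4% with the rule on 1 wild-type and 1 knockout library.

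The count of 0 members for the whole window became 3 with a pseudocount of 0.5, 5 with quantile normalization (4 higher, 1 lower) and 29 without the 25% of lowest mean. That 29 became 11, 3, 33, 8 and 24 without wild-type replicates 1 and 3 and knockout replicates 1, 2 and 3. Leaving out 1 library gave 0 to 0 for the whole window, 0 to 31 for the centre, 0 to 1 for the flanks and 0 to 0 for the difference of centre and flank; the centre gave 31 (25 higher, 6 lower) and 19 (12 higher, 7 lower) without wild-type replicates 1 and 3, against 39 higher and 3690 lower and 20 higher and 3205 lower of all 36447 windows, where the remaining wild-type sample is taken to vary as much as the knockout samples do. The flanks gave 1 without the 25% of lowest mean. The cause was not tested.

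For libraries that share a replicate number, members' deviations from the genotype mean correlated at 0.0193 for replicate 1 and 0.0266 for replicate 3. The deviations of the 2 wild-type libraries mirror each other. Pairs with unlike numbers therefore held the same values with the opposite sign (-0.0193 and -0.0266), and these correlations cannot decide whether the libraries were paired. With the replicate block the counts stayed 0 in the 4 fits, 29 became 14, and the differences were -0.136 (centre), 0.235 (flank), 0.107 (outer), -0.142 (ratio), 0.456 and 0.278 (against the other strong windows) and -4.32 percentage points. Knockout replicate 2 has no partner there.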
